A study of Macaca fascicularis with 9 samples.

Results

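Oligodendrocyte cluster 1 is a group of 14,524 nuclei from cynomolgus monkey thalamus. Its members are the nuclei that the deposited table of nuclei names oligodendrocytes and gives the cluster number 1. They were taken from 61,578 oligodendrocyte nuclei and 79,994 nuclei in all, and the other 47,054 oligodendrocyte nuclei carry the cluster numbers 0, 2, 3, 5, 8 and 10. The nuclei came from 9 females of Macaca fascicularis, in 3 groups of 3 animals. Saline animals received 4 intravenous doses of saline. Animals of the ASO group received a single intrathecal dose of 4 mg of an antisense oligonucleotide against MALAT1, and animals of the OTV group were dosed 4 times by vein with OTV:MALAT1 at 30 mpk. Thalamus was taken 2 weeks after the last dose in every group. The labels give no strain or age, doses also differed in number between the routes, and saline was given intrathecally to no animal, so a difference between ASO and saline includes the injection itself. The study compared how the 2 ways of giving the oligonucleotide reach the brain, and here each way was compared with saline and with the other inside cluster 1.

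Oligodendrocytes wrap axons in myelin, a stack of lipid-rich membrane held together by proteins such as MOG and MAG. In single-nucleus data from adult brain they usually form a continuum of related states rather than sharply separate types, and they express many adhesion and ion channel genes that are better known from neurons. MALAT1 is a noncoding RNA retained in the nucleus at speckles rich in splicing factors, and it is among the most abundant RNAs of a nucleus. An antisense oligonucleotide is a short modified strand that pairs with its target RNA and leads to its cutting. OTV stands for a transport vehicle, a protein that binds the transferrin receptor on brain capillaries and carries the joined oligonucleotide from the blood into the brain.

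Saline replicates 1, 2 and 3 held 2014, 1986 and 232 nuclei of cluster 1. ASO replicates 1, 2 and 3 held 2429, 2374 and 2054, and OTV replicates 1, 2 and 3 held 1790, 653 and 992. As a share of the oligodendrocyte nuclei of the same animal, the saline animals had 23.4%, 22.5% and 21.6%, the ASO animals 24.9%, 22.4% and 29.0% and the OTV animals 24.7%, 23.5% and 17.7%. Cluster sizes were not compared between groups, because a gene that sets the cluster apart, PCDH7, itself differed between groups. The median count of unique molecular identifiers (UMIs) per nucleus lay between 3495 and 8559 in cluster 1 and between 2304 and 7474 in the other oligodendrocyte nuclei, and it was higher in cluster 1 in each of the 9 animals. Saline replicate 3 and the 3 OTV replicates stood apart. Saline replicate 3 gave 1282780 UMIs for cluster 1 against 4109201 to 21593520 in the other animals. OTV replicate 3 had the lowest median depth, and 37.4% of its other oligodendrocyte nuclei lay under 2000 UMIs, against 1.01% of its cluster 1. In OTV replicate 1 cluster 8 made up 22.9% of the oligodendrocyte nuclei, against 0.0178% to 3.82% in the other animals. Cluster 0 made up 9.06% there, against 25.2% to 35.5%. In OTV replicate 2, 23.9% of the other oligodendrocyte nuclei had a deposited doublet score above 0.1, against 5.67% of its cluster 1. In the other animals that share of the other oligodendrocyte nuclei was 1.43% to 6.98%. The nuclei that cluster 1 was compared with thus differed in make-up between animals. Of the cluster 1 nuclei, 274 (1.89%) had a barcode that also occurred in another library, against 1.90% of all nuclei.

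The oligodendrocyte label was checked against markers. Of 8 listed oligodendrocyte markers 7 are in the feature table, and all 7 reached 5 CPM in cluster 1 (CPM, the UMIs of a gene scaled by the total UMIs of the summed nuclei). Their summed level was 5698 to 7424 CPM in saline, 6633 to 9155 in ASO and 5808 to 7023 in OTV. Myeloid and vascular markers were low, with a myeloid sum of 11.4 to 26.5 CPM and a vascular sum of 14.5 to 35.1 CPM over all animals. The astrocyte sum was 109 to 200 CPM, and the sum of oligodendrocyte precursor markers was 187 to 572 CPM. The sum of 8 neuronal markers was 302, 423 and 1197 CPM in the saline animals, 256 to 288 in ASO and 266 to 334 in OTV, and the value of 1197 belonged to saline replicate 3. The neuronal sum was higher in cluster 1 than in the other oligodendrocyte nuclei of every animal. Part of that sum was SYT1, a synaptic vesicle protein gene, at 255.7 CPM in cluster 1 and 109 CPM in the other oligodendrocyte nuclei on average. Whether free RNA from other cells takes part in these levels was not tested.

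Cluster 1 was set apart from the other oligodendrocyte nuclei of the same animal by a small number of genes with large ratios. These ratios describe the cluster and carry no test, since the clusters were made from the same genes. Of 10,486 genes with a mean of at least 5 CPM in either class, 588 (5.61%) were higher and 1737 (16.6%) were lower in all 9 animals, and 7 were at least 2-fold higher and 16 at least 2-fold lower in each animal. Without saline replicate 3, the library with the fewest nuclei of cluster 1, these counts were 911, 2507, 14 and 59. CDH7, a cadherin of cell adhesion, came first. In cluster 1 it stood at 124, 124 and 112 CPM in saline, 142, 42.5 and 62.8 in ASO and 118, 157 and 123 in OTV. In the other oligodendrocyte nuclei it stood at 38.0, 38.1 and 37.3 CPM in saline, 35.0, 5.32 and 18.3 in ASO and 34.4, 45.2 and 24.6 in OTV. ASO replicate 2 was the lowest in both classes and had the largest ratio, and the log2 ratio ran from 1.56 to 2.78 with a median of 1.75.

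FRY, which codes for a microtubule-binding protein, was the seventh gene by its smallest ratio. Its level in cluster 1 was 1485, 1621 and 1376 CPM in saline, 1469, 993 and 1084 in ASO and 1854, 1251 and 1934 in OTV, against a mean of 532 CPM in the other oligodendrocyte nuclei. ERC2, a scaffold of the presynaptic active zone, reached 1225, 1031 and 957 CPM in saline, 927, 688 and 320 in ASO and 961, 925 and 1541 in OTV, against a mean of 338 CPM. ERC2 was lowest in ASO replicate 3, and the other oligodendrocyte nuclei of that animal were lower still at 111 CPM. The largest median ratio among the named genes belonged to PCDH7, a protocadherin, at 475 CPM on average in cluster 1 and 117 CPM in the rest (median log2 ratio 2.15, range 1.5 to 3.18). KANK1, which links focal adhesions to actin and microtubules, had 326 against 85.1 CPM (median 2.10). CNTN1, a contactin anchored on the cell surface, had 1713 against 595 CPM (median 1.49), and FCHSD2, a protein of endocytosis, had 149 against 53 CPM (median 1.48). The remaining genes of this group were CCDC85A, the cell cycle transcription factor E2F3, the synaptic adhesion protein LRFN5, the signalling adaptor PAG1 and the receptor phosphatase PTPRO, with median log2 ratios of 1.63, 1.44, 1.28, 1.39 and 1.25.

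**Figure D1:**
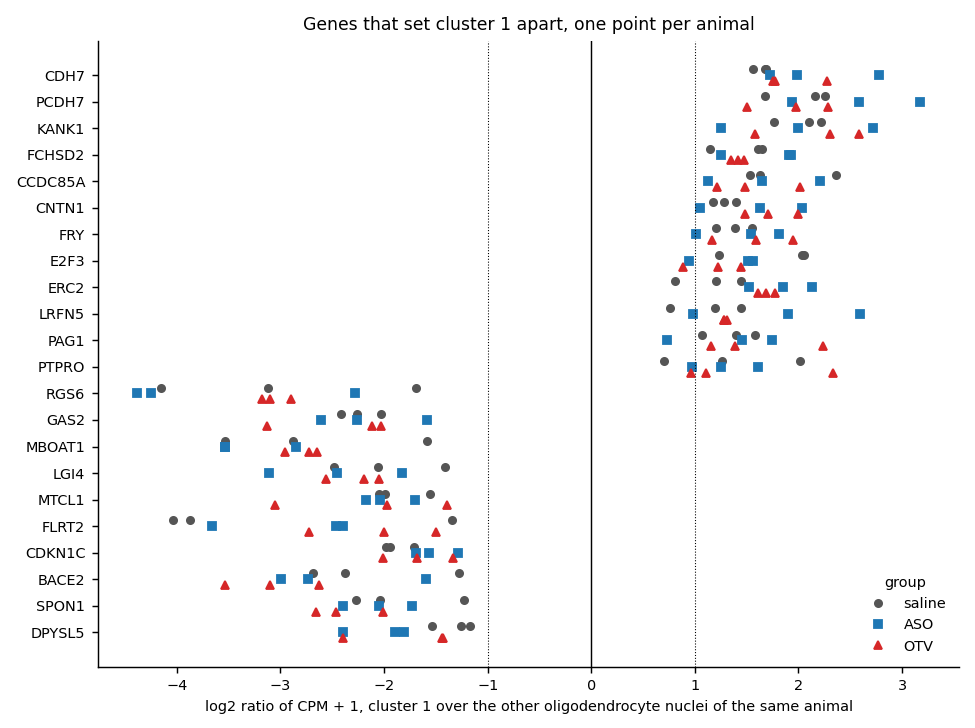
Log2 ratio of CPM + 1 between cluster 1 and the other oligodendrocyte nuclei of the same animal (x axis) for the 12 higher and 10 lower genes named by rule (y axis), one point per animal and one colour and shape per group. Dotted lines mark 2-fold; CDH7 lies right of it in all 9 animals (1.56 to 2.78) and RGS6 left of it in all 9 (-4.38 to -1.69).

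RGS6, a brake on G protein signalling, showed the opposite pattern most clearly. It stood at 4.79, 9.40 and 4.68 CPM in saline, 5.83, 3.15 and 4.24 in ASO and 16.9, 28.5 and 37.7 in OTV within cluster 1, and at a mean of 135 CPM in the other oligodendrocyte nuclei. Its median log2 ratio was -3.12. The 3 OTV animals were the highest in cluster 1, but each was still far below the other nuclei of the same animal. SPON1, a secreted matrix protein, had 45.9 CPM against 205 CPM (median -2.05), and FLRT2, an adhesion and guidance receptor, had 28.4 against 147 CPM (median -2.47). DPYSL5, a cytoskeletal protein of growing neurites, was abundant in both classes at 245 and 753 CPM (median -1.54). GAS2 and MTCL1, which both bind cytoskeletal filaments, the acyltransferase MBOAT1, the secreted protein LGI4, the cell cycle inhibitor CDKN1C and the protease BACE2 completed the group, at means of 1.29 to 5.69 CPM in cluster 1 and 15.3 to 31.3 CPM in the rest.

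The core myelin genes hardly separated cluster 1 from the rest. MOG averaged 871 CPM in cluster 1 and 839 CPM outside it, and MOG, MAG and CLDN11 had median log2 ratios of 0.06, 0.04 and -0.03. Of 16 myelin genes at 5 CPM or more, 2 were higher in all 9 animals and 3 lower, beside 5.61% and 16.6% of all genes, and the median log2 ratio was -0.07 both over the list and over all genes. The higher ones were OPALIN, a membrane protein of oligodendrocytes, at 797 against 504 CPM (median 0.72), and MAL, a myelin proteolipid, at 270 against 223 CPM. The lower ones were transferrin (TF), CLDND1 and GAL3ST1, the sulfotransferase that makes sulfatide. MOBP, a structural myelin protein, averaged 416 CPM against 536 and was higher in 1 of 9 animals.

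Among 13 oligodendrocyte transcription factors, OLIG2, TCF7L2, ZNF536 and SOX6 were higher in all 9 animals, and NKX2-2 and ST18 were lower, beside 5.61% of all genes higher and 16.6% lower in all 9 animals. SOX6, which holds back differentiation in the lineage, had 117 CPM against 60.1 (median log2 ratio 0.96). Of 10 genes of newly formed oligodendrocytes, TCF7L2 and RRAS2 were higher in all animals, while ENPP6, the best known marker of that stage, was lower at 27.8 against 123 CPM (median -2.40). The 6 precursor cell markers reached a sum of 187 to 572 CPM in saline, of which LHFPL3 made up 154 to 478 CPM. In the 221 nuclei described further on, VCAN had 17.6 CPM against 7.04 in the remaining cluster 1 nuclei (higher in 8 of 9 animals), LHFPL3 277 against 193 (7 of 9), PTPRZ1 26.0 against 27.2 (3 of 9) and TNR 3.20 against 3.47 (4 of 9), and PDGFRA and CSPG4 had 1 and 2 UMIs.

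Adhesion and synaptic genes were mostly on the higher side where they differed. Of 28 such genes, 9 (32.1%) were higher in all 9 animals and 1 (3.57%) was lower, beside 5.61% and 16.6% of all genes. CDH7, CNTN1 and ERC2 are among them, so the count rests in part on the genes already described. The others were NLGN1, a postsynaptic adhesion protein, at 2211 against 962 CPM (median log2 ratio 1.31), IL1RAPL1, a synaptic organiser, at 6473 against 5007 CPM, and CDH19, LSAMP, OPCML and DSCAM. Of 25 ion channel, receptor and transporter genes, 5 were higher in all animals: the potassium channels KCNH8 (927 against 463 CPM) and KCNQ5, the calcium channel subunit CACNA2D1, and the glutamate receptor subunits GRIA2 and GRIK2 (1002 against 535 CPM). KCNMB4, which modulates a calcium-activated potassium channel, GRM7 and the transporter SLC5A11 were lower. KCNMB4 had 265 CPM in cluster 1 and 455 CPM outside it. No member of 18 ribosomal protein genes and none of 11 mitochondrially encoded genes was on the same side in all animals.

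Across the oligodendrocyte clusters the levels of CDH7, FRY and RGS6 were graded. The genes were named for their ratios in cluster 1, so its place at one end follows in part from that choice. Not every named gene was graded. E2F3 stood at 3.34 CPM in cluster 0, 2.64 in cluster 3 and 4.04 in cluster 10. BACE2 stood at 1.49, 1.29 and 1.53 CPM in clusters 0, 1 and 2. Mean CDH7 levels were 112 CPM in cluster 1, 75.7 in cluster 2, 26.2 in cluster 0, 30.7 in cluster 8, 10.0 in cluster 3, 3.49 in cluster 5 and 3.12 in cluster 10. These means weigh all 9 animals alike. Cluster 8 had only 1 nucleus in OTV replicate 3 and 21 in OTV replicate 2, and cluster 10 only 9 in saline replicate 3. FRY ran from 1452 CPM in cluster 1 through 1102 in cluster 2 and 577 in cluster 0 to 50.4 in cluster 10, and RGS6 ran the other way, from 12.8 CPM in cluster 1 to 530 in cluster 10. By the count of genes 2-fold different in the same direction in all 9 animals, cluster 2 was nearest to cluster 1, with no such gene. The median log2 ratios to cluster 2 were 0.55 for CDH7 and 0.35 for FRY. Over all genes the median size of the log2 ratio was 0.138 against cluster 2 and 0.145 against cluster 0. The SD of CDH7 over animals was 36.4 CPM in cluster 1 and 30.0 CPM in cluster 2. Against cluster 0 there were 8 genes higher and 2 lower by that count, against cluster 3 there were 44 and 40, and against cluster 10 there were 211 and 245 (8 animals). In a coarser deposited clustering (resolution 0.2, against 0.3 for the cluster numbers used here), 14,523 nuclei of cluster 1 joined a cluster of 17,559 oligodendrocyte nuclei, of which they made up 82.7%. That coarser cluster also held 2473 nuclei of cluster 0 (14.1%) and 560 of cluster 2 (3.19%).

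**Figure D2:**
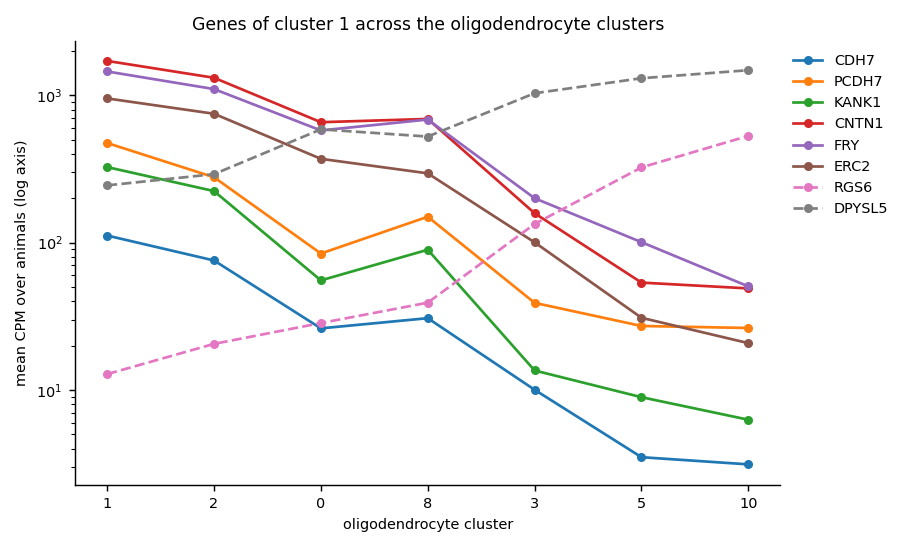
Mean CPM over all 9 animals, however few nuclei they held (y axis, log scale), of 8 genes in the 7 oligodendrocyte clusters (x axis, ordered from cluster 1 outward). Solid lines are genes higher in cluster 1 and dashed lines genes lower in it; CDH7 falls from 112 CPM in cluster 1 to 3.12 CPM in cluster 10 while RGS6 rises from 12.8 to 530 CPM.

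Detection per nucleus was counted for FRY, CNTN1, ERC2 and CDH7, and FRY and CNTN1 were found in most nuclei of cluster 1. With each nucleus thinned to 1000 UMIs, FRY had at least 1 UMI in 57.6% to 80.3% of cluster 1 nuclei per animal (median 70.7%, or 98.2% without thinning). In cluster 2 the median thinned share was 60.8%, in cluster 0 it was 37.8% and in cluster 10 it was 4.01%. Myeloid nuclei, which should lack the gene, had a median of 5.22% after thinning, with a median depth of 4320 UMIs per nucleus against 6807 in cluster 1. CNTN1 followed FRY at a median thinned share of 77.3% in cluster 1, against 5.34% in myeloid nuclei. ERC2 was found in 22.3% to 73.5% of cluster 1 nuclei. CDH7 is a low-abundance gene and was found in 3.79% to 14.1% of them after thinning, a median of 11.1% (41.6% without thinning), against 0.522% of myeloid nuclei. None of the 3 given markers was private to oligodendrocytes: neurons averaged 98.1 CPM of CDH7 and 728 CPM of ERC2, and oligodendrocyte precursor cells 527 CPM of FRY.

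A small set of nuclei inside cluster 1 differed from the remainder. In the coarsest deposited clustering (resolution 0.1), 221 of the 14,524 nuclei (1.52%) formed a cluster of their own that held no other oligodendrocyte nuclei. They numbered 39, 54 and 14 in saline, 25, 21 and 30 in ASO and 16, 11 and 11 in OTV, from 0.885% of cluster 1 in ASO replicate 2 to 6.03% in saline replicate 3. They were rich in NAV2, a neuron navigator protein, at 216 CPM against 5.30 CPM in the other cluster 1 nuclei, in GFRA1, a receptor of the glial-derived neurotrophic factor family, at 127 against 2.74 CPM, and in TMEM163 at 206 against 6.64 CPM. OPCML, an adhesion protein, had 967 against 59.0 CPM and E2F3 had 164 against 6.83 CPM. Of the markers of cluster 1 itself, PCDH7 stood at 3324 CPM against 341 and CDH7 at 344 against 98.0 CPM. KLHL4 (10.4 against 332 CPM), TOX2 (1.20 against 71.9 CPM) and DOCK5 (77.6 against 845 CPM) were low. Each of these 10 genes, picked among the largest ratios or the markers after their values were seen, lay on the same side in all 9 animals. Of the other given markers, FRY was higher in all 9 animals (3541 against 1365 CPM). ERC2 was higher in 5 animals and lower in 4 (1191 against 885 CPM).

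The split-off nuclei kept oligodendrocyte markers: MOBP, MAG and CLDN11 were higher in them in all 9 animals, at 834, 824 and 633 CPM against 386, 577 and 425 CPM. SYT1 stood at 787 CPM against 202, while SNAP25 (26.4 against 14 CPM), RBFOX3, GRIN1 and SLC17A6 were low in both. Their median depth was 10,800 UMIs against 7119, and their median deposited doublet score was 0.0283 against 0.000872. No deposited nucleus was called a doublet, and whether some of the 221 hold RNA of more than 1 cell was not tested. Without them, the number of genes at least 2-fold higher in cluster 1 in every animal was 2, namely CDH7 with a lowest log2 ratio of 1.27 and KANK1 with 1.21. The median log2 ratios of CCDC85A and E2F3 were then 0.98 and 0.91, in place of 1.63 and 1.44. The lowest ratio of PCDH7 was then 0.94, that of FRY 0.89, that of ERC2 0.82 and that of PTPRO 0.06.

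MALAT1, the target of both oligonucleotides, took a smaller share of the RNA of cluster 1 in every treated animal than in any saline animal. It took 6.54%, 7.23% and 7.23% of UMIs in the saline animals, 4.86%, 4.17% and 5.77% in the ASO animals and 3.87%, 3.34% and 2.95% in the OTV animals. The 3 groups did not overlap, with every ASO animal below every saline animal and every OTV animal below every ASO animal. The group means were 7.0% ± 0.397 (SD, n = 3), 4.93% ± 0.799 (SD, n = 3) and 3.39% ± 0.463 (SD, n = 3), so ASO and OTV stood at 70.5% and 48.4% of saline. Wilson 95% intervals of single animals were no wider than 0.0448 percentage points on each side, and they cover counting error only. Over the 3 groups, the two-sided exact permutation p was 0.00357, the smallest that 280 partitions allow (0.00536 adjusted over 3 MALAT1 measures), and each pair of groups gave exact p = 0.1, the smallest for 3 against 3 animals.

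Fitted with edgeR's quasi-likelihood method and adjusted over all genes, MALAT1 in cluster 1 was lower after OTV than in saline by -1.02 on the log2 scale (SE 0.14, adjusted p = 0.00152). The ASO group differed from saline by -0.54 (SE 0.14) and did not pass the threshold of 0.05 (adjusted p = 0.135). OTV and ASO differed by -0.47 (SE 0.14, adjusted p = 0.0369), a call that was lost without saline replicate 1, saline replicate 2, ASO replicate 1, ASO replicate 3, OTV replicate 2 or OTV replicate 3, with adjusted p = 0.0515, 0.0608, 0.0816, 0.146, 0.119 and 0.140 by edgeR. LTBP3, a neighbour of MALAT1 in the genome, and TFRC, the transferrin receptor that OTV binds, were measured at 14.1 and 16.6 CPM on average. Neither passed the test in any comparison. Against saline, LTBP3 had log2 fold changes of -0.04 in ASO and -0.07 in OTV, and TFRC of -0.05 in ASO and 0.37 in OTV.

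Low MALAT1 was a property of most nuclei after OTV. After thinning to 1000 UMIs, a nucleus was counted as low when it fell under the 10th percentile of saline cluster 1 nuclei. That held for 12.6%, 5.14% and 9.91% of nuclei in saline, 43.6%, 75.0% and 23.6% in ASO and 77.3%, 91.7% and 94.2% in OTV. The ASO animals were the most spread, and ASO replicate 2, with the lowest MALAT1 share of its group, came close to the lowest OTV animal. The exact permutation p over the 3 groups was 0.00357. The cut came from the saline nuclei themselves and was kept for every partition, so this p adds no support beyond the test of the MALAT1 share. The coefficient of variation of MALAT1 between nuclei beyond counting noise averaged 0.281 ± 0.0424 in the saline group, 0.244 ± 0.0599 in the ASO group and 0.306 ± 0.0450 in the OTV group (SD, n = 3 animals each). A difference beyond the spread between animals was not detected (exact permutation p = 0.354).

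**Figure D3:**
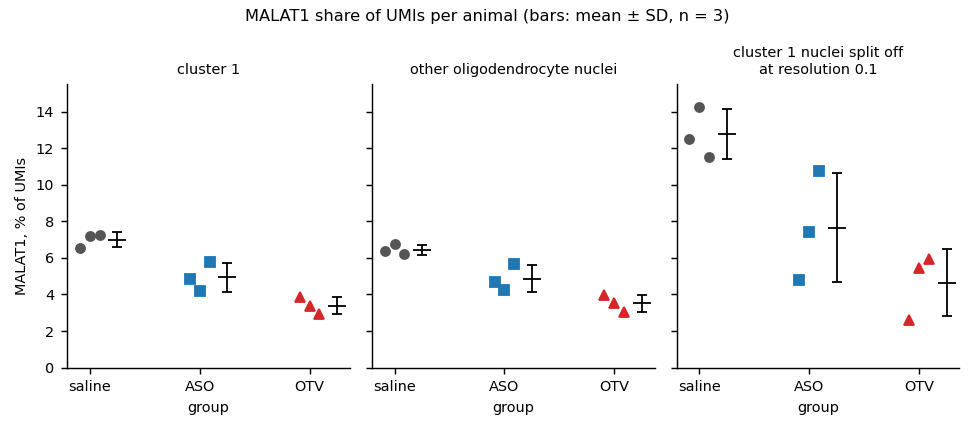
MALAT1 as a percentage of UMIs (y axis) per animal in the saline, ASO and OTV groups (x axis), in cluster 1, in the other oligodendrocyte nuclei and in the 221 split-off nuclei, with bars for the mean ± SD of 3 animals. In cluster 1 the groups do not overlap (6.54% to 7.23%, 4.17% to 5.77% and 2.95% to 3.87%), and the split-off nuclei of saline animals lie between 11.5% and 14.2%.

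The other oligodendrocyte nuclei moved the same way, and their means were 6.44% ± 0.271, 4.86% ± 0.745 and 3.51% ± 0.468 (SD, n = 3), or 75.6% and 54.6% of saline after ASO and OTV. The test of the difference in response between the 2 classes, an edgeR interaction term with animal as a block, did not pass for MALAT1 with low counts filtered. The fold change in cluster 1 minus that in the other oligodendrocyte nuclei was -0.09 for the ASO group (adjusted p = 1.00) and -0.17 for the OTV group (adjusted p = 0.286), each set against saline, with an SE of 0.05. Between OTV and ASO it was -0.08 (adjusted p = 0.685). Without a filter on low counts it passed for the OTV group against saline (-0.23, adjusted p = 1.66e-07) and against ASO (-0.13, adjusted p = 0.0252). The log2 ratio of MALAT1 between cluster 1 and the rest, computed after the data were seen, averaged 0.12 ± 0.09 in saline animals, 0.02 ± 0.04 in ASO animals and -0.05 ± 0.02 in OTV animals (SD, n = 3), with an exact permutation p of 0.0143 over the 3 groups. Without the split-off nuclei that p was 0.0536. MALAT1 in the split-off nuclei took 12.5%, 14.2% and 11.5% of UMIs in saline, 4.77%, 7.45% and 10.8% in ASO and 2.58%, 5.43% and 5.95% in OTV, from 11 to 54 nuclei an animal.

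After intrathecal ASO few genes of cluster 1 passed the test. Of 16,567 genes tested against saline, 79 (0.477%) passed edgeR's quasi-likelihood test at an adjusted p under 0.05, 33 of them higher (0.199%) and 46 lower (0.278%), and 1929 had an unadjusted p under 0.05. DESeq2's Wald test called 425 and edgeR without a filter on low counts 125. Leaving out saline replicates 1 and 2 in turn gave 44 and 23 genes, and leaving out ASO replicates 1, 2 and 3 gave 22, 45 and 35. GIPR, the receptor of gastric inhibitory polypeptide, changed most clearly. It stood at 0.732, 1.32 and 0 CPM in saline, 50.2, 47.7 and 31.6 in ASO and 0.884, 0.690 and 1.22 in OTV (log2 fold change 5.43, SE 0.38, adjusted p = 0.000504 for ASO against saline). It was close to absent in all saline and OTV animals, and its call stood without any 1 of the 9 animals. CD274, the immune checkpoint ligand PD-L1, had 1.20, 1.89 and 0.780 CPM in saline, 12.9, 9.54 and 18.6 in ASO and 3.13, 2.30 and 1.22 in OTV (3.15, SE 0.40, adjusted p = 0.0106, and 0.0553 without saline replicate 1 in the same edgeR test). SGCB, a sarcoglycan of the cell membrane, rose from 23.6, 31.0 and 26.5 CPM to 56.7, 56.5 and 60.6 (1.06, SE 0.13). KIF6, a kinesin, rose from 191, 156 and 193 CPM to 366, 350 and 429 (1.05, SE 0.13). The calls of SGCB and KIF6 also stood without any 1 animal, but with every animal thinned to the same total SGCB did not pass (1.17, adjusted p = 0.0600). Of the 27 genes taken by the naming rules and called for ASO against saline, 15 lost the call under at least 1 other processing choice, 19 without at least 1 animal, and 5 kept it throughout.

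Genes that fell after ASO included an ion channel subunit and enzymes. KCNMB4, already lower in cluster 1 than outside it, had 351, 379 and 311 CPM in saline, 168, 170 and 194 in ASO and 251, 268 and 295 in OTV. ASO and saline did not overlap (log2 fold change -1.01, SE 0.11, adjusted p = 0.00748, edgeR). HSD17B6, a steroid-converting enzyme, fell from 14.2, 16.0 and 14.8 CPM to 5.32, 5.00 and 5.76 (-1.53, SE 0.17), and ATP2A1, a calcium pump, from 20.6, 14.2 and 7.02 CPM to 2.34, 2.08 and 1.74 (-2.88, SE 0.35). These 3 calls stood without any 1 of the 9 animals, and HSD17B6 did not pass with totals thinned (adjusted p = 0.0617). PCDH7 also differed, at 727, 568 and 975 CPM in saline against 282, 211 and 309 in ASO, a call lost without ASO replicate 1 (adjusted p = 0.0501, edgeR). The split-off nuclei, rich in PCDH7, made up 1.94% to 6.03% of cluster 1 in saline and 0.885% to 1.46% in ASO. Without them PCDH7 still passed (-1.43, adjusted p = 0.00781, edgeR). In the other oligodendrocyte nuclei PCDH7 stood at 163, 118 and 304 CPM in saline and 46.0, 22.4 and 79.9 in ASO, so the ASO animals lay below the saline animals in both classes.

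By list, few genes of cluster 1 passed after intrathecal ASO, and the counts stand beside 0.199% of all genes called higher and 0.278% called lower. None of 16 myelin, 19 cholesterol synthesis, 18 ribosomal, 26 speckle and splicing, 14 heat shock, 23 lysosomal or 12 p53 and stress genes passed edgeR's test, and 1, 4, 0, 1, 2, 2 and 0 of them had an unadjusted p under 0.05. Of 31 adhesion and synaptic genes, 2 fell, CNTN4 among them, and none rose, and the median log2 fold change of the list was -0.77, beside 0.02 over all genes tested. The 8 neuronal markers had a median of -0.64, with none called and 1 at an unadjusted p under 0.05. Whether RNA of neurons takes part in the median of the adhesion list was not tested. CNTN4, SOX6 and MPZL1 passed with all 9 animals, at -1.79, -0.96 and -1.36, but each lost its call without at least 7 single animals (highest adjusted p = 0.125, 0.126 and 0.125, edgeR). Without the split-off nuclei CNTN4 and MPZL1 did not pass (adjusted p = 0.0807 and 0.102). Of the mitochondrially encoded transcripts 7 of 13 were lower after ASO, and ND5, ND3 and COX2 lost their calls with totals thinned. COX2 also lost it without a filter on low counts and with the compared animals only, and ND4L and COX2 each lost it without any 1 of 6 animals and ND3 without any 1 of 2. Their summed level in cluster 1 was 37.4 to 283 CPM in saline, 3.32 to 8.47 in ASO and 615 to 1514 in OTV. In the other oligodendrocyte nuclei the sums were 50.9 to 289, 3.99 to 7.88 and 523 to 1388 CPM, so the groups kept the same order there. These RNAs are made outside the nucleus, and how far the yield of nuclei or free RNA sets them was not tested.

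After intravenous OTV, 2159 of the 16,567 genes (13.0%) differed from saline by edgeR at an adjusted p under 0.05, 788 higher and 1371 lower, and 4634 had an unadjusted p under 0.05. Without saline replicates 1 and 2 the counts were 1309 and 1216. KAT2A, a histone acetyltransferase, had 26.1, 27.5 and 28.1 CPM in saline, 18.7, 23 and 20.5 in ASO and 78.2, 62.5 and 70.8 in OTV (log2 fold change 1.41, SE 0.14, adjusted p = 0.000428). SOX2, a transcription factor of neural progenitors that persists in glia, had 42.2, 44.9 and 46.0 CPM in saline, 47.9, 38.1 and 37.9 in ASO and 94.6, 101 and 117 in OTV (1.26, SE 0.13, adjusted p = 0.000455). For both genes the saline and ASO animals lay close together and each OTV animal lay above them. PLXNB1, a semaphorin receptor, rose from 35.7, 33.2 and 35.9 CPM to 84.9, 107 and 152 (1.74, SE 0.20). The nuclear import receptor IPO13, the sphingomyelinase SMPD4, the catenin ARVCF, TMEM259 and ADAP1 rose by 1.17, 1.11, 1.49, 1.17 and 1.02 on the log2 scale. BCL2L2-PABPN1 (1.02) is a feature for read-through between neighbouring genes and may share their reads, so its value is uncertain.

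Genes that fell after OTV included several enzymes. ACADS, which starts the breakdown of short fatty acids, had 300, 303 and 203 CPM in saline, 365, 255 and 359 in ASO and 53.1, 54.7 and 37.0 in OTV (-2.46, SE 0.22, adjusted p = 0.000356, edgeR). PIGH, of the enzyme that begins membrane anchor synthesis, fell from 394, 428 and 507 CPM to 94.8, 121 and 77.4 (-2.15, SE 0.21). BTD, the enzyme that frees biotin, fell from 234, 246 and 217 CPM to 64.6, 73.8 and 47.7 (-1.88, SE 0.18). The glucose-6-phosphatase G6PC3, the tyrosine phosphatase PTPN6, the lipoprotein receptor LSR, the small GTPase partner ARL2BP, TMEM53 and the protease PRSS48 fell by 1.41, 1.86, 2.11, 1.87, 1.89 and 3.15 on the log2 scale. RPS6, a ribosomal protein, had 111, 105 and 95.1 CPM in saline, 119, 123 and 142 in ASO and 41.3, 39.5 and 33.3 in OTV (-1.42, SE 0.13, adjusted p = 0.000356), though genes of ribosomal proteins have many near-identical copies that may share reads. No animal of the OTV group overlapped with a saline animal in any gene of this and the previous paragraph, which the rule for naming required, and each call stood without any 1 of the 9 animals.

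**Figure D4:**
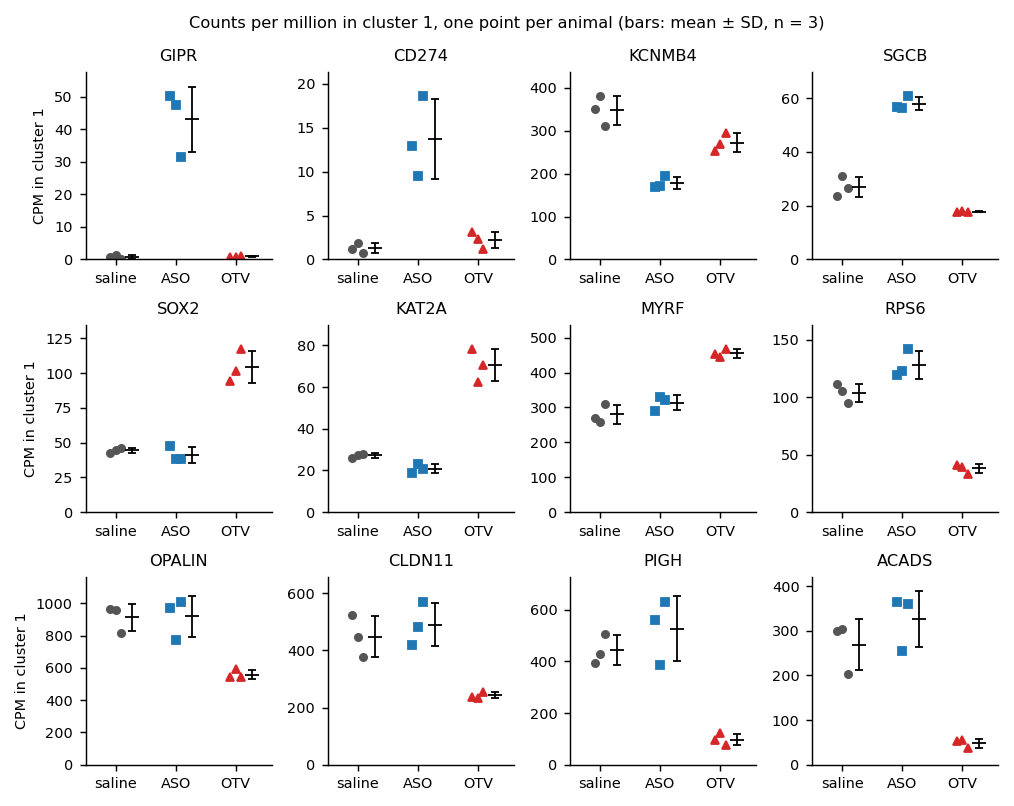
CPM in cluster 1 (y axes, each from 0) of 12 genes, one point per animal in the saline, ASO and OTV groups, with bars for the mean ± SD of 3 animals. GIPR, CD274, KCNMB4 and SGCB stand apart in the ASO animals, and SOX2, KAT2A, MYRF, RPS6, OPALIN, CLDN11, PIGH and ACADS in the OTV animals.

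Oligodendrocyte genes moved in both directions after OTV. MYRF, the transcription factor that switches on myelin genes, rose from 269, 259 and 311 CPM to 452, 444 and 467 (log2 fold change 0.73, SE 0.10, adjusted p = 0.00154, edgeR). Of 16 myelin genes none rose and 3 fell, beside 4.76% and 8.28% of all genes that rose and fell. OPALIN had 967, 958 and 816 CPM in saline and 543, 592 and 541 in OTV (-0.69, SE 0.12, adjusted p = 0.00476), and CLDN11, a tight junction protein of the myelin sheath, had 522, 445 and 377 CPM in saline and 238, 235 and 254 in OTV (-0.87, SE 0.15, adjusted p = 0.00387). The saline and OTV animals did not overlap in either gene. MAL fell by 0.44, a call that was lost without any 1 of 5 animals (highest adjusted p = 0.0979). The median log2 fold change of the myelin list was 0.01, beside -0.01 over all genes tested. SOX6 fell from 144, 161 and 233 CPM to 83.3, 80.9 and 72.3 (-1.14, SE 0.17, adjusted p = 0.00226), and its levels after ASO, 101, 98.0 and 81.5 CPM, were also under every saline animal.

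Splicing factors of the nuclear speckles, where MALAT1 resides, were higher after OTV by count. Of 26, 10 rose and none fell, with a median log2 fold change of 0.21 beside -0.01 over all genes, and 4.76% of all genes rose. SRRM2, a scaffold of the speckles, had 263, 282 and 306 CPM in saline, 327, 257 and 288 in ASO and 389, 510 and 540 in OTV (0.78, SE 0.13, adjusted p = 0.00404, edgeR). U2AF2 rose by 0.98 and SF3B1 by 0.52, both part of the machinery that recognises the branch site. These 3 calls stood without any 1 animal. MAP3K11, a kinase gene near MALAT1, rose by 0.62 (adjusted p = 0.0127), and was the only one of 6 neighbours tested that passed, a call lost with totals thinned (adjusted p = 0.0615).

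For OTV against saline, 16 of 30 listed interferon and sensing genes could be tested. With so few genes, their calls do not set the list apart from all genes. The list counts here stand beside 4.76% of all genes called higher and 8.28% called lower. Of 16 tested, none was higher (0 also at an unadjusted p under 0.05, edgeR) and 2 were lower, among them IFIT3 at -1.25, whose call was lost without any 1 of 4 animals (highest adjusted p = 0.0682). Among 12 p53 and stress genes, 2 fell, TP53INP1 and CCNG1 by 0.99 and 0.66, and 1 rose, the stress transcription factor ATF4 by 1.38. None of the 3 passed with totals thinned (adjusted p = 0.0735, 0.0538 and 0.119). CCNG1 lost its call without saline replicate 2 and without OTV replicates 2 and 3 (adjusted p = 0.121, 0.0684 and 0.0913), and ATF4 without saline replicate 2 or OTV replicate 1 (adjusted p = 0.0599 and 0.0529). None of 14 heat shock genes passed by edgeR, and 0 had an unadjusted p under 0.05. Among 16 genes of iron and transferrin handling, HFE and IREB2 fell by 2.19 and 0.41 on the log2 scale, and ceruloplasmin (CP) was called lower at 2.53, 1.03 and 1.56 CPM in saline and 0.272, 0.230 and 0.243 CPM in OTV, a handful of UMIs per animal. The call of IREB2 was lost without any 1 of the 9 animals, and that of CP without saline replicate 1 or OTV replicate 1 (adjusted p = 0.0635 and 0.0518). Mitochondrially encoded transcripts were higher in 9 of 13, with the summed levels given above, and 2 marker genes of other cells fell, GAD1 of inhibitory neurons (1 of 8 neuronal markers tested) by 1.62 and SKAP1 (1 of 2 T cell markers tested) by 2.26. SKAP1 stood at 14.03 to 21.04 CPM in saline and 2.30 to 5.03 in OTV, whereas CD3E, which codes for a chain of the T cell receptor complex, stood at 10.9 to 15.2 and 12.6 to 16.3 CPM. The summed T cell markers, 24.9 to 37.3 CPM in saline and 15.2 to 22.2 CPM in OTV, were thus lower through SKAP1. The part of these other-cell and mitochondrial signals in the results of cluster 1 was not tested.

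Few adhesion and channel genes were called after OTV, and the counts are too small to set these lists apart from all genes. Of 31 adhesion and synaptic genes, 3 rose (CNTN2, CDH19 and NTM) and 1 fell (LRRTM3), beside 4.76% and 8.28% of all genes. CNTN2, an adhesion protein at the edge of the myelinated segment, had 284, 322 and 341 CPM in saline and 411, 409 and 454 in OTV (0.46, SE 0.09, adjusted p = 0.0102, edgeR), and its call stood without any 1 animal. CDH19 rose by 0.75, a call lost without saline replicate 2 or 3 (adjusted p = 0.0737 and 0.0646), and NTM by 0.82, lost without any 1 of 4 animals (highest adjusted p = 0.0810). Of 25 channel and transporter genes, 1 rose and 1 fell, beside the same shares of all genes. The sodium-calcium exchanger SLC24A2 rose by 0.77 and CACNA2D1 fell by 1.38, and both calls were lost without single animals (highest adjusted p = 0.0568 and 0.141 by edgeR). None of the given markers passed: CDH7, FRY and ERC2 had log2 fold changes of 0.16, 0.19 and 0.11 after OTV and of -0.59, -0.38 and -0.77 after ASO, both against saline.

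Intravenous OTV and intrathecal ASO differed from each other in 3307 genes (20.0%), 1360 higher (8.21%) and 1947 lower (11.8%) after OTV, with 5582 at an unadjusted p under 0.05 by edgeR, and in 2116 without ASO replicate 1. This comparison shares its animals with the 2 before it. TELO2, a partner of large kinases, had 4.92, 6.81 and 5.00 CPM in ASO and 32.6, 29.0 and 31.6 in OTV (2.53, SE 0.22, adjusted p = 0.000124). PADI2, an enzyme that converts arginines in myelin basic protein, had 111, 104 and 107 CPM in ASO, 319, 289 and 252 in OTV and 167, 137 and 172 in saline (1.48, SE 0.13, adjusted p = 0.000124). Saline thus lay between the 2 treatments in PADI2, with no overlap. CFAP43 and GET4 were higher after OTV by 1.39 and 1.19 on the log2 scale. AP3B2, a subunit of a vesicle adaptor, had 83.7, 73.0 and 96.4 CPM in ASO and 16.9, 16.3 and 12.2 in OTV (-2.39, SE 0.20), and MRPS18A and RNF121 differed by -1.52 and -1.96. Of 31 adhesion and synaptic genes 7 were higher and 2 lower after OTV, with a median of 0.75 beside -0.01 over all genes, and of 18 ribosomal protein genes 6 were lower and none higher. All 13 mitochondrially encoded genes were higher after OTV. Of 16 myelin genes 4 were lower and none higher. CLDN11 (-0.95), OPALIN (-0.65) and MAL (-0.55) kept their calls without any 1 of the 9 animals and under the 7 other processing choices, and MOG (-0.51) lost its call without any 1 of 4 animals (highest adjusted p = 0.0692).

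The number of genes that responded differently in cluster 1 and in the other oligodendrocyte nuclei depended on the filter on low counts. The interaction test covered 17,652 genes, with 2 sums for each animal and animal as a block. Between ASO and saline edgeR called 2 genes (0.0113%) at an adjusted p under 0.05, 1 with a higher response in cluster 1 (0.00567%) and 1 with a lower one (0.00567%), while 796 had an unadjusted p under 0.05. Between OTV and saline it called 22 (0.125%), 7 higher (0.0397%) and 15 lower (0.0850%), with 1357 at an unadjusted p under 0.05. Between OTV and ASO it called 59 (0.334%), 26 higher (0.147%) and 33 lower (0.187%), with 1639 at an unadjusted p under 0.05. Without a filter on low counts the same test called 187, 350 and 431 genes in the 3 comparisons. With cluster 8 left out of the other oligodendrocyte nuclei it called 2, 30 and 79. These counts also moved when single animals were left out. For ASO against saline they were 5, 1 and 5 without saline replicates 1, 2 and 3, 1 and 26 without ASO replicates 2 and 3, and 0 and 0 without OTV replicates 1 and 2, where 800 and 827 had an unadjusted p under 0.05. For OTV against saline they were 44 without ASO replicate 3 and 10 without OTV replicate 1. For OTV against ASO they were 114 without saline replicate 3, 28 without ASO replicate 1, and 27, 28 and 22 without OTV replicates 1, 2 and 3. Of the 2 genes for ASO only MAGI1, a scaffold of cell junctions, has a symbol. It had 638, 636 and 557 CPM in cluster 1 of saline animals and 683, 680 and 700 after ASO, and 748, 826 and 713 and then 596, 695 and 648 CPM outside the cluster.

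LRRTM3, a synaptic adhesion protein, fell less in cluster 1 than in the other nuclei after OTV. In cluster 1 it had 577, 570 and 493 CPM in saline and 246, 280 and 226 in OTV, and in the other oligodendrocyte nuclei 499, 527 and 490 CPM in saline and 148, 170 and 104 in OTV. The saline levels were alike in both classes and the OTV levels did not overlap between them. The difference in response was 0.73 on the log2 scale (SE 0.09, adjusted p = 0.00360, edgeR), and 0.64 (adjusted p = 1.49e-05) against cluster 0 alone. With only nuclei of at least 2000 UMIs LRRTM3 did not pass between OTV and saline (0.78, adjusted p = 0.127). By cluster, the OTV mean of LRRTM3 was 251 CPM in cluster 1, 219 in cluster 2, 149 in cluster 0 and 86.8 in cluster 10, while saline means ran from 449 CPM in cluster 10 to 564 in cluster 2. FILIP1L, a filamin-interacting protein, had the same shape at lower abundance, with 38.1, 35.8 and 36.6 CPM in saline and 15.4, 17.2 and 11.7 in OTV in cluster 1, and 9.22, 9.22 and 5.73 CPM in OTV outside it (0.79, SE 0.12, adjusted p = 0.00488, and 0.0651 against cluster 0 alone).

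INPP4A, a phosphatase of membrane phosphoinositides, had a smaller response in cluster 1. It stood at 128, 125 and 133 CPM in ASO and 148, 224 and 178 in OTV in cluster 1, and at 142, 132 and 130 CPM in ASO and 229, 327 and 248 in OTV in the other oligodendrocyte nuclei. The ASO levels of the classes were close together and the OTV levels did not overlap between them. The difference in response between OTV and ASO was -0.50 (SE 0.08, adjusted p = 0.00418, edgeR), and it passed without any 1 of the 9 animals and against cluster 0 alone (-0.36, adjusted p = 0.0135). The OTV mean was 184 CPM in cluster 1, 193 in cluster 2, 234 in cluster 0 and 413 in cluster 10.

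In L3MBTL4 and SLC26A5 the OTV levels were lower in cluster 1 than in the other oligodendrocyte nuclei. L3MBTL4, a chromatin-binding protein, had 2.06, 2.06 and 6.24 CPM in saline and 2.72, 2.53 and 2.68 in OTV in cluster 1. In the other oligodendrocyte nuclei it had 2.57, 2.30 and 6.55 CPM in saline and 35.8, 10.1 and 19.3 in OTV, and the difference in response was -3.09 (SE 0.34, adjusted p = 0.000195, edgeR). The levels by cluster show where it lay: the OTV mean was 131 CPM in cluster 10 and 4.67 in cluster 0, and against cluster 0 alone the difference was -0.63 (adjusted p = 0.786). SLC26A5, a membrane transporter best known from the inner ear, had 8.59, 12.7 and 8.58 CPM in saline, 20.1, 11.1 and 13.3 in ASO and 4.63, 4.60 and 1.46 in OTV in cluster 1. Outside it the levels were 15.46, 14.6 and 9.96 CPM in saline, 42.1, 17.6 and 19.9 in ASO and 41.6, 22.3 and 21.8 in OTV. The OTV animals thus lay below the saline animals in cluster 1 (log2 fold change -1.42) and above them outside it, where the ASO animals reached similar levels. The difference in response between OTV and saline was -2.59 (SE 0.29, adjusted p = 0.00488, edgeR), and the OTV mean was 131 CPM in cluster 10. Against cluster 0 alone its difference was -0.58 (adjusted p = 0.665), and without OTV replicate 1 it was -2.41 (adjusted p = 0.186). Within cluster 10, L3MBTL4 had 2.94 and 3.03 CPM in the 2 saline animals with enough UMIs there and 49.96 to 218 CPM in the 3 OTV animals, and SLC26A5 had 27.6 and 62.4 CPM against 92.0 to 202. That cluster made up 0.838% to 3.34% of the oligodendrocyte nuclei in saline and 2.67% to 3.29% in OTV, and the levels within it were not tested.

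ROR2, a receptor of Wnt signals, differed in its response to ASO and to OTV. In cluster 1 it had 5.33, 2.86 and 0 CPM in saline, 44.1, 10.3 and 28.3 in ASO and 3.61, 1.84 and 2.68 in OTV, and in the other oligodendrocyte nuclei 4.51, 2.58 and 3.98, 19.8, 4.17 and 13.9, and 14.1, 8.89 and 7.45 CPM. For OTV against ASO the difference in response was -3.10 (SE 0.23, adjusted p = 2.56e-07, edgeR), and -2.31 (adjusted p = 0.412) against cluster 0 alone. After ASO its mean was 27.6 CPM in cluster 1 and 26.5 in cluster 2 against 8.68 in cluster 0, with an SD of 16.9 CPM over the 3 animals in cluster 1.

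**Figure D5:**
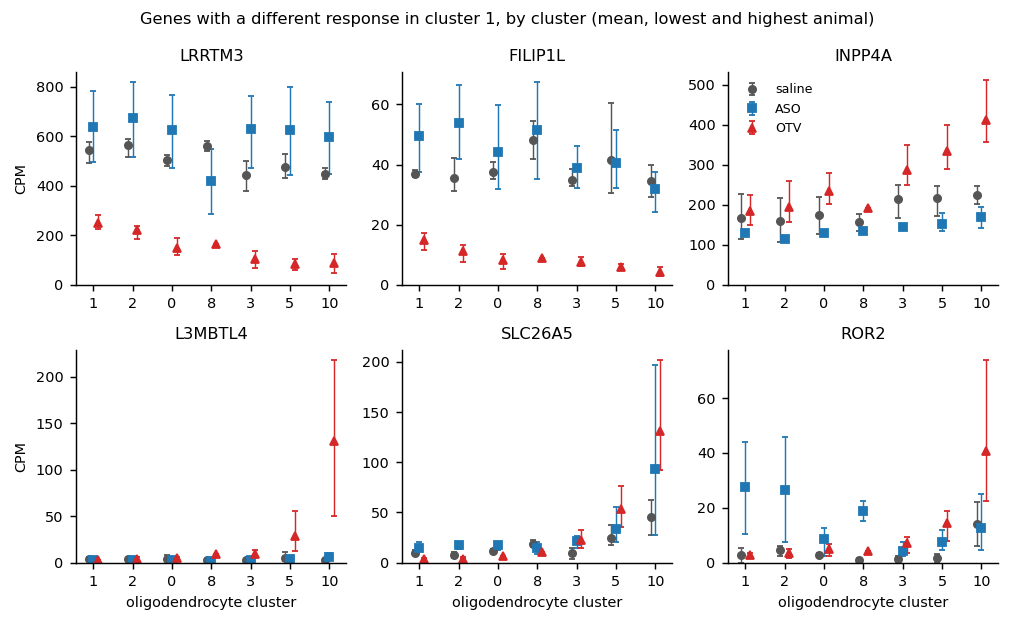
CPM (y axes, each from 0) of 6 genes in each oligodendrocyte cluster (x axis, cluster 1 first), as the mean over animals with lines from the lowest to the highest animal, for up to 3 animals a group with enough UMIs in the cluster. After OTV, LRRTM3 declines from 251 CPM in cluster 1 to 86.8 in cluster 10, and L3MBTL4 stands at 2.64 CPM in cluster 1 and at 131 CPM in cluster 10.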

How the data were processed

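Nuclei were isolated from frozen thalamus, sorted on DAPI and run on the 10x Genomics platform, per the labels' protocols, whose text names mouse brain although all samples are labelled cynomolgus. Cell Ranger 6.1.2, Seurat 4 and the build GRCh38.p13 are named in the submitters' processing notes, while the features carry macaque Ensembl identifiers. The deposited matrix holds raw UMI counts of 29,128 features, 14,893 with a symbol. The deposited table of nuclei gives the authors' cell types, cluster numbers, doublet score and percent values, of which only the doublet score is printed. Which tool called doublets is not stated in these sources. The smallest nucleus held 1018 UMIs.

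Counts were summed per animal over cluster 1 and over the other oligodendrocyte nuclei. Sums were fitted with edgeR 4.0.16 in R 4.3.3 (TMM, filterByExpr, robust quasi-likelihood, all 9 animals, Benjamini-Hochberg over all genes, called at an adjusted p under 0.05). The interaction fit used animal as a block. DESeq2 1.42.0 was an alternative. For each gene, edgeR p-values within cluster 1 rest on 1 estimate of the spread between animals, shared by the 3 groups. Those of the interaction rest on the spread left between the 2 sums of an animal. Exact permutation p-values give the rank of the observed grouping among all partitions. Fewer nuclei and less RNA per nucleus cannot be told apart in sums. Ratios used CPM + 1. Genes with a symbol were named by rule: in each contrast up to 10 higher and 10 lower called genes with the smallest adjusted p, no overlap between animals and a mean of at least 5 CPM; for the difference in response up to 5 each way; for cluster 1 against the rest the 12 higher and 10 lower genes, on the same side in all 9 animals and at a mean of at least 5 CPM in either class, whose ratio nearest 0 lay farthest from it; and up to 4 members per list. The cluster, the genes and the lists were chosen with earlier results of these data known. Some genes that the rule names are not reported here. Tests were checked on simulated data for OTV against saline in cluster 1. Of the changes put in, 4% were recovered at a log2 fold change of 0.5, 28.6% at 1 and 72% at 2. Of 103 calls 8 were false. A gene that did not pass may therefore still have changed.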

Additional observations from a re-analysis of the deposited data

Results flagged for a closer look

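These differences in response between cluster 1 and the other oligodendrocyte nuclei passed edgeR's interaction test (fold change in cluster 1 minus that in the other nuclei, log2). For OTV against saline they were positive in LRRTM3 (0.73), FILIP1L (0.79), EBF2 (2.15), NFIB (0.46) and NAAA (1.76), and negative in L3MBTL4 (-3.09), TMEM132B (-0.69), ROR2 (-2.06), SLC26A5 (-2.59) and CADPS2 (-1.52). For OTV against ASO they were positive in LRRTM3 (0.82), FILIP1L (0.67), IL1RAPL1 (0.44), CAMK1 (1.01) and TXNIP (0.49), and negative in ROR2 (-3.10), L3MBTL4 (-3.14), TMEM132B (-0.97) and INPP4A (-0.50). For ASO against saline MAGI1 had 0.42.

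TMEM132B varied widely between animals of 1 group, with 118, 199 and 469 CPM in cluster 1 of the saline animals. EBF2, an early B-cell factor family transcription factor, had 2.86, 2.23 and 0 CPM in cluster 1 of the saline animals and 10.2, 8.39 and 0.854 in their other oligodendrocyte nuclei, so saline replicate 3 lay below every OTV animal in both classes. It had 9.43, 11.4 and 3.26 CPM in cluster 1 after ASO and 1.43, 4.14 and 0.973 after OTV. In the other oligodendrocyte nuclei it had 23.5, 23.5 and 6.96 CPM after ASO and 1.66, 1.33 and 1.38 after OTV. IL1RAPL1, among the most abundant genes here, had 7525, 7923 and 7177 CPM in cluster 1 after ASO and 5349, 5855 and 5514 after OTV, so it fell less there than outside, where 6138, 6672 and 6390 CPM stood against 3409, 3874 and 3173.

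Against cluster 0 alone, LRRTM3, CADPS2, MAGI1, IL1RAPL1 and INPP4A still passed, and the others did not. The size of those others changed unequally between OTV and saline: FILIP1L stayed at 0.79 and EBF2 was 1.64 in place of 2.15. L3MBTL4 was -0.63 in place of -3.09. Between OTV and saline, TMEM132B, NFIB and NAAA did not pass without the split-off nuclei, and ROR2 and NAAA did not pass by DESeq2. Calls also depended on single animals: MAGI1 and NFIB were lost without any 1 of 6 animals, NAAA without 5, TXNIP without 4, EBF2 without 3, FILIP1L (OTV against ASO) without 3, and IL1RAPL1, CAMK1 and ROR2 (OTV against saline) without 2. CADPS2 was lost without saline replicate 1 (-1.30, adjusted p = 0.0508, edgeR) and SLC26A5 without OTV replicate 1. LRRTM3, L3MBTL4, TMEM132B and INPP4A, and FILIP1L for OTV against saline and ROR2 for OTV against ASO, passed without any 1 of the 9 animals.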

How the results depend on the processing

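No called gene taken by the naming rules and no MALAT1 fold change reversed its direction under any alternative. Reversals of genes that were not called were not counted. The balance of calls did turn for ASO against saline, with 33 higher and 46 lower in the main run. It was 14 and 8 without ASO replicate 1, 30 and 15 without ASO replicate 2, and 18 and 17 without ASO replicate 3. For the difference in response between OTV and saline it went from 7 and 15 to 6 and 4 without OTV replicate 1. The number of genes called for ASO against saline was 79, and it was 425 by DESeq2's Wald test, 125 without a filter on low counts and 20 with every animal thinned to the smallest total. Thinning gave 780 between OTV and saline and 1218 between OTV and ASO, with 9541 genes left to test at that depth. Leaving out 1 animal gave 22 to 62, 1216 to 2066 and 2116 to 3558 genes for the 3 comparisons. Different responses numbered 6 (DESeq2), 187 (no filter), 12 (against cluster 0 only) and 5 (without the split-off nuclei) for ASO against saline, 350 (no filter) and 10 (cluster 0 only) for OTV against saline and 431 (no filter) for OTV against ASO, and 0 to 26, 10 to 44 and 22 to 114 with 1 animal left out.

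MALAT1 passed for ASO against saline under DESeq2 (-0.55, adjusted p = 0.0375) and did not pass for OTV against ASO with the compared animals only (-0.49, adjusted p = 0.0579). Without a filter its difference in response passed between OTV and saline (-0.23, adjusted p = 1.66e-07) and between OTV and ASO (-0.13, adjusted p = 0.0252). The cause was not tested. Over all alternatives its edgeR and DESeq2 adjusted p ran from 0.0375 to 0.335, 3.46e-08 to 0.00941 and 0.0223 to 0.146 in cluster 1. With 1 animal left out its fold changes were -0.66 to -0.45, -1.11 to -0.89 and -0.58 to -0.33, its differences in response -0.11 to -0.06, -0.23 to -0.17 and -0.12 to -0.08, and the exact permutation p of its share 0.00357 to 0.0107, of its coefficient of variation 0.139 to 0.650 and of the low nuclei 0.00357 to 0.0393.

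Genes 2-fold higher in every animal numbered 7, and 2 without the split-off nuclei; genes 2-fold lower numbered 16, and 2 against cluster 0 only and 7 with a prior of 5 CPM. With 1 animal left out they were 7 to 14 and 16 to 59, the highest without saline replicate 3. The alternatives without the split-off nuclei were chosen after seeing the data. Of the 57 genes taken by the naming rules and called for OTV against saline, 17 lost the call under at least 1 other choice and 19 without at least 1 animal, and of 62 for OTV against ASO 11 and 12 did. No paired analysis was possible because no label ties an animal of one group to an animal of another.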
